A study of Saccharomyces cerevisiae with 6 samples.

Results

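The aquaporins and the glycerol genes of budding yeast (Saccharomyces cerevisiae) are a set of 10 genes: the aquaporin family genes AQY1, AQY2 and AQY3, the glycerol channel FPS1, the glycerol synthesis genes GPD1, GPD2, GPP1 and GPP2, and the glycerol use genes GUT1 and GUT2. They were grouped by known function and picked from results that already included their methanol ratios. Their ratios and calls are therefore a description and carry no test of their own. On the array 9 of the 10 had a spot that the platform annotation named for them, 1 spot each, among 5379 named genes. No spot carried the symbol GPP2, so this gene has no value. All 9 had a value on each of the 3 arrays, as did 4336 genes in all.

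Cells of strain S288C, a laboratory strain, were grown in rich glucose medium at 25 °C to an optical density of 1. Treated cultures then received methanol at a final 5% for 2 h, and control cultures grew on for 2 h without it. On each of 3 two-colour arrays, poly(A) RNA of a treated culture (Cy5) was set against RNA of an untreated one (Cy3), and the series design calls the 3 arrays independent biological samples. Every array has a high-power and a low-power scan, which together count as 1 replicate. Dyes were never swapped, so a dye effect specific to a gene cannot be told apart from the treatment. The values are log ratios, read here as log2 of methanol over untreated. Base and direction are not stated with the values, and the direction is likely because the treated RNA is the Cy5 channel. If it ran the other way, every sign below would turn.

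Yeast makes glycerol from the glycolytic intermediate dihydroxyacetone phosphate, first by reduction to glycerol 3-phosphate and then by removal of the phosphate. Glycerol is the main osmolyte of this yeast and also a sink for surplus NADH, and it leaves the cell through a channel that closes under high osmolarity. When glycerol is used as food, a kinase and a mitochondrial dehydrogenase turn it back into dihydroxyacetone phosphate, and these genes are repressed on glucose. Aquaporins let water cross membranes along osmotic gradients.

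In methanol the aquaporin genes AQY1 and AQY3 and both glycerol use genes were higher than in untreated cells, by 3.29-fold to 7.49-fold. The glycerol synthesis genes GPD1 and GPD2 stood near the median gene, and GPP1 was at 0.451 times the untreated level. AQY2 and FPS1 averaged slightly below 0 on the log2 scale. AQY2 changed sign between arrays, whereas FPS1 was below 0 on every array. In the fit over all genes (limma, Benjamini-Hochberg adjusted p under 0.05), 4 of the 9 measured genes were called higher, 1 lower and 4 were not called. Over all 4336 genes 26.0% were called higher, 24.2% lower and 50.3% either way. Because the genes were picked with these ratios known, nothing is read from their count.

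**Figure D1:**
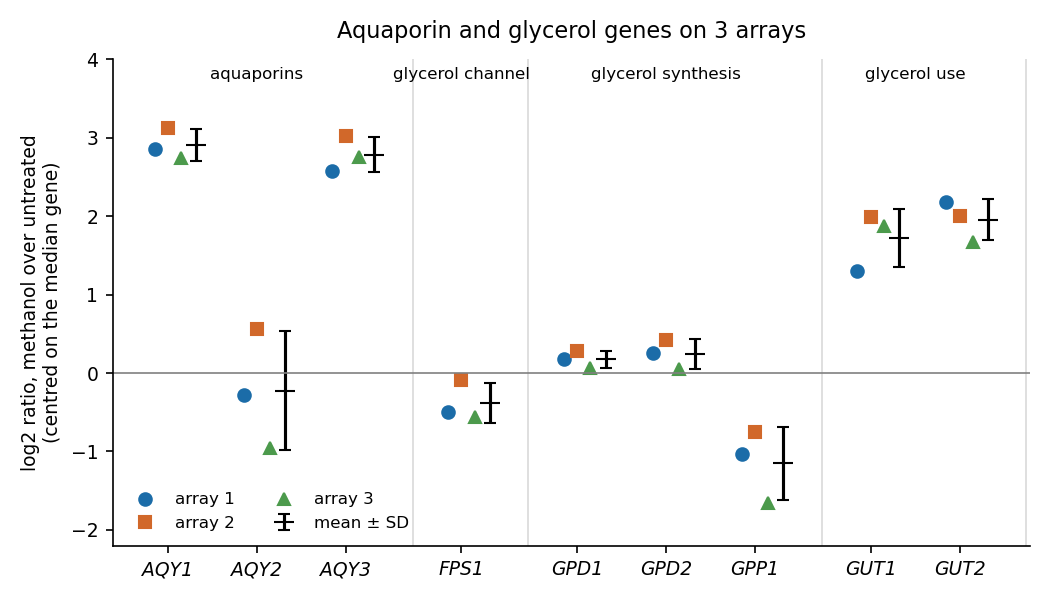
Log2 ratio of methanol over untreated (vertical axis, each array centred on its median gene) for the 9 measured genes, in blocks by role. Symbols are the 3 arrays, and the bar beside them is the mean ± SD (n = 3). AQY1, AQY3, GUT1 and GUT2 lie above 1 on every array, GPP1 lies below 0 on every array, and AQY2 spreads from −0.95 to 0.56.

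AQY1 (YPR192W) is a water channel gene best known from spores. Only RNA was measured, and whether a working channel is made in this strain was not tested. Its log2 ratios were 2.85, 3.13 and 2.74 on arrays 1, 2 and 3, a mean of 2.91 ± 0.20 (SD, n = 3) or 7.49-fold. It ranked 15th from the top of the 4336 genes and was the highest of the set. AQY3 (YFL054C), a longer relative that resembles glycerol facilitators, had 2.57, 3.02 and 2.76. Its mean was 2.78 ± 0.23, or 6.89-fold, which ranked 19th. Within an array AQY1 exceeded AQY3 by 0.28 and 0.10 on arrays 1 and 2 and stood 0.02 below it on array 3, so their order was not the same on every array.

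The third aquaporin gene differed between arrays. AQY2 (YLL052C) is a plasma membrane water channel gene that is interrupted in many laboratory strains, and its remainder is annotated here as YLL053C. The AQY2 log2 ratios were −0.28, 0.56 and −0.95. Array 2 was above 0 and arrays 1 and 3 below it. The mean was −0.22 ± 0.76, and this SD stood at percentile 98.0 of the SDs of all genes tested. On array 1 its scans also disagreed, at −0.66 at high power and 0.01 at low power before centring. AQY2 was not called over 3 arrays, but without array 2 it averaged −0.61 and was called lower, and without array 3 it averaged 0.14. Its neighbour YLL053C covers the remainder of the interrupted aquaporin gene and had −0.17, 0.03 and −0.59, a mean of −0.24 ± 0.32 (limma adjusted p = 0.222). Both readings were highest on array 2 and lowest on array 3. AQY1 stood above AQY2 by 3.13, 2.57 and 3.69 within the 3 arrays, although their sequences are alike enough that spots may share signal.

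FPS1 (YLL043W), the gene of the osmotically gated glycerol exporter, had log2 ratios of −0.50, −0.09 and −0.56. All 3 were below 0, with array 2 close to it. The mean of −0.39 ± 0.26 corresponds to 0.766 times the untreated level, and the gene was not called. Its call depends on the processing: it was called lower without array 2, at −0.53, and also with array weights or other centring.

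The genes of the first step of glycerol synthesis had small ratios. GPD1 (YDL022W), the glycerol 3-phosphate dehydrogenase isoform induced by osmotic stress, had 0.18, 0.29 and 0.06, a mean of 0.17 ± 0.11 or 1.13-fold. GPD2 (YOL059W), the isoform tied to anaerobic redox balance, had 0.26, 0.43 and 0.05, a mean of 0.24 ± 0.19 or 1.18-fold. Neither was called, though every array was above 0 for both. Within an array GPD1 minus GPD2 was −0.08, −0.14 and 0.01, a mean of −0.07 ± 0.08, so the isoforms differed by at most 0.14 on an array. Whether the spots of these isoforms share signal was not tested. GPD2 was called higher, at 0.37, when high-power scans alone were used.

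The measured gene of the next step of synthesis had lower RNA levels in methanol. GPP1 (YIL053W), a glycerol phosphate phosphatase gene, had log2 ratios of −1.04, −0.75 and −1.66. All arrays were well below 0, array 3 most. The mean was −1.15 ± 0.46, which is 0.451 times the untreated level, and the gene was called lower. In rank it stood 158th from the bottom of 4336 genes, and its SD stood at percentile 90.3. GPP1 and GPP2 are near-identical in sequence, so RNA of GPP2, the isoform induced by osmotic stress, may contribute to the GPP1 spot, and the difference between the isoforms could not be computed.

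The genes of both steps of glycerol use had higher RNA levels in methanol. GUT1 (YHL032C), the glycerol kinase gene, had log2 ratios of 1.30, 1.99 and 1.87, a mean of 1.72 ± 0.37 or 3.29-fold, which ranked 100th from the top. GUT2 (YIL155C), the gene of the mitochondrial glycerol 3-phosphate dehydrogenase, had 2.18, 2.00 and 1.67, a mean of 1.95 ± 0.26 or 3.87-fold, which ranked 66th. Every array was far above 0 for both genes. GUT1 minus GUT2 was −0.88 on array 1, −0.02 on array 2 and 0.20 on array 3. The mean difference of −0.23 ± 0.57 was smaller than its spread, and without array 1 it was 0.09.

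**Figure D2:**
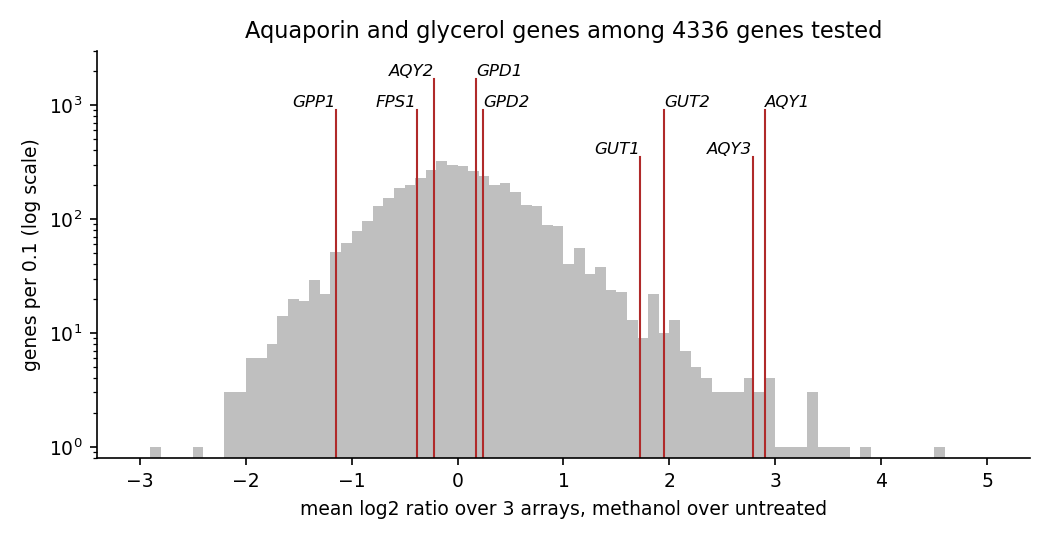
Mean log2 ratio over 3 arrays for all 4336 genes tested (grey histogram in steps of 0.1, log scale on the vertical axis), with red lines at the 9 aquaporin and glycerol genes. AQY1, AQY3, GUT2 and GUT1 lie in the upper tail, at 2.91, 2.78, 1.95 and 1.72, GPP1 lies toward the lower tail at −1.15, and the other 4 lie between −0.39 and 0.24.

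The median log2 ratio of the 9 genes was 0.24, against −0.01 for all genes tested, and 5 of the 9 had a mean of at least 1 in size, against 13.2% of all genes. As the genes were picked with their ratios known, nothing is read from these differences. Ratios on array 2 were the highest of the 3 for 8 of the 9 genes, all but GUT2, and those on array 3 were the lowest for 7. Among all genes array 2 was highest for 38.1% and array 3 lowest for 33.8%. Array 2 was also the lowest for 39.1% of all genes, but for 0 of the 9. Array 2 also had the fewest genes with a value, 4399 against 5166 and 5339 on arrays 1 and 3. The weights that limma estimated were 0.477 for array 2, against 1.575 for array 1 and 1.331 for array 3. Beyond a fit with these weights and leaving array 2 out, its part in these ratios was not tested. Without array 2, AQY1, AQY3, GUT1 and GUT2 were still called higher and GPP1 lower, and AQY2 and FPS1 were called lower as well.

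The scans gave a second reading of the same spots. GPD1, GPD2 and GPP1 had values in all 6 scans, and AQY2, FPS1 and GUT1 lacked only the low-power scan of array 2. AQY1, AQY3 and GUT2 had values at high power only, so their ratios rest on 1 scan of each array. The 1035 genes tested with high-power values only had a median log2 ratio of 0.01, with 28.4% called higher and 21.1% lower.

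Whether the ratio moved with laser power was tested in the genes with both scans on all arrays, as high minus low power centred on the median gene. Of 1595 such genes 11 were called by limma, or 0.69%, and of the 3 glycerol genes among them 0 were called, with 1 at an unadjusted p under 0.05. That was GPD2, which read 0.23, 0.17 and 0.32 higher at high power on the 3 arrays, a mean of 0.24 ± 0.07 (limma adjusted p = 0.113). GPD1 differed by 0.35, −0.06 and 0.13, and GPP1 by 0.08, −0.10 and 0.34. For GPD1 and GPD2 these gaps were of the size of the methanol ratios themselves, and for GPP1 they were well below it.

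**Figure D3:**
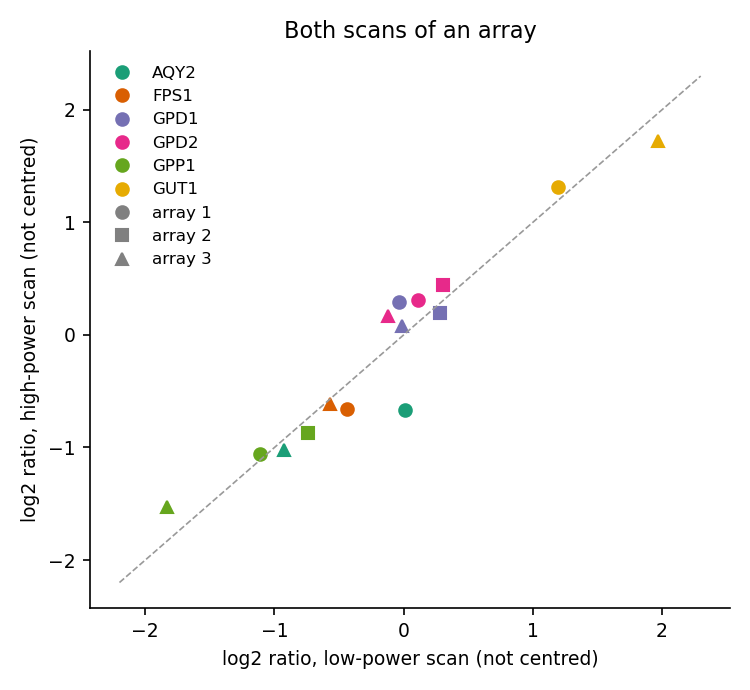
Log2 ratio at high power (vertical) against that at low power (horizontal), before centring, for each array on which a gene had both scans. Colours are genes, symbols are arrays, and the dashed line marks equal values. Most points lie near the line, GPP1 is low and GUT1 high in both scans, and AQY2 on array 1 lies farthest off, at −0.66 and 0.01.

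The other genes around glycerol were taken from 11 short lists of pathway genes, 55 of which were tested. Of these 26 were called higher, 4 lower and 25 were not called, with a median log2 ratio of 0.43. The lists were drawn up from known roles while results of these data were known, so their counts also describe. They can be read against the 26.0% and 24.2% of all genes. Calls lost on leaving out an array can be read against all genes too. With 3 arrays 1129 genes were called higher and 1051 lower. Without array 1 these were 672 and 575, without array 2 1218 and 1120, and without array 3 867 and 737. A call lost in this way need not go with a smaller ratio.

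Among regulators of GUT1 and GUT2, 3 of 6 were called higher and the other 3 were not called (median 0.42). ADR1, an activator of glucose-repressed genes including GUT1, had log2 ratios of 1.42, 1.83 and 0.95, a mean of 1.40 ± 0.44 (limma adjusted p = 0.000778). INO2, which activates phospholipid genes and GUT1, stood at 0.62 ± 0.37 (limma adjusted p = 0.0157), and the zinc finger gene RSF2 at 0.52 ± 0.14 (limma adjusted p = 0.0114). INO2 lost its call without array 1 (0.54) or array 2 (0.49), and RSF2 without array 1 (0.52) or array 3 (0.46). INO4, the partner of INO2, stood at 0.31 ± 0.19, the repressor gene OPI1 at −0.08 ± 0.26 and the kinase gene SNF1 at −0.19 ± 0.38, none of them called.

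Yeast can also use glycerol by way of dihydroxyacetone. GCY1, a glycerol dehydrogenase gene of that route, rose on all arrays, by 1.15, 1.24 and 0.98 (mean 1.12 ± 0.13, limma adjusted p = 0.000459). The related reductase gene YPR1 had 0.19, 1.20 and 0.07 and was not called (0.49 ± 0.62). The dihydroxyacetone kinase genes had values on 2 arrays each and were not tested with the rest. DAK2 had 1.76 and 1.37 on arrays 2 and 3, whereas DAK1 had −0.02 and 0.20 on arrays 1 and 3. When genes with 2 arrays were admitted, DAK2 was called higher, at 1.57 (limma adjusted p = 0.00191), and DAK1 was not called, at 0.09 (limma adjusted p = 0.668).

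For uptake and channel control, STL1, the glycerol and proton symporter gene that is induced strongly by salt, had 0.28 and 0.33 on arrays 1 and 3 and no value on array 2. When genes with 2 arrays were admitted, STL1 was not called, at 0.305 (limma adjusted p = 0.166). ASK10, which encodes a positive regulator of the Fps1 channel, was called higher at 0.45 ± 0.23 (limma adjusted p = 0.0302), and lost the call without array 1 (0.40) or array 3 (0.36). Its paralogue RGC1 (0.19 ± 0.46) and the acyltransferase gene GUP1 (0.27 ± 0.07) were not called. Thus 1 of 3 tested genes of this list was called.

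Enzymes that share substrates with Gut2 and the Gpd enzymes were mixed. NDE2, an external mitochondrial NADH dehydrogenase gene, rose by 2.07 ± 0.17 (limma adjusted p = 6.43e-05), with 1.90, 2.24 and 2.08 on the arrays, and NDI1, the internal enzyme's gene, by 0.80 ± 0.20 (limma adjusted p = 0.00241). NDE1, the other external enzyme's gene, stood at −0.34 ± 0.23 and the mitochondrial alcohol dehydrogenase gene ADH3 at −0.02 ± 0.24, and neither was called. Of the genes that put acyl chains on glycerol 3-phosphate or act next to that step, GPT2 had 1.46, 1.46 and 1.65, a rise of 1.53 ± 0.11 (limma adjusted p = 0.000125), and AYR1 rose by 0.76 ± 0.38 (limma adjusted p = 0.00719). SCT1, the gene of the other glycerol 3-phosphate acyltransferase, stood at 0.18 ± 0.19 and SLC1 at 0.02 ± 0.28, neither called.

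At the glycolytic branch point, the genes of aldolase (FBA1, 0.11 ± 0.36) and triose phosphate isomerase (TPI1, 0.07 ± 0.15) were not called. The glyceraldehyde 3-phosphate dehydrogenase genes TDH1, TDH2 and TDH3 were called higher, at 1.5 ± 0.34, 0.56 ± 0.33 and 0.50 ± 0.18. They are similar in sequence and may share signal. TDH2 lost its call without array 1 (0.69) or array 3 (0.38), and TDH3 without array 1 (0.45).

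Osmotic signalling genes were called in both directions. Of 14 tested genes of the HOG pathway, the kinase cascade that raises GPD1 transcription under high osmolarity, 3 were called higher, 3 lower and 8 were not called (median −0.11), close to the 26.0% higher, 24.2% lower and 50.3% called either way over all genes. YPD1, the phosphorelay intermediate, fell by 1.02 ± 0.28 (limma adjusted p = 0.00129), and PTC1, a phosphatase gene that counters the cascade, fell by 0.97 ± 0.22 (limma adjusted p = 0.00121). The kinase gene SSK22 and the membrane anchor gene OPY2 were called higher, both at 0.59. SSK22 lost its call without array 1 (0.51), and OPY2 without array 1 (0.71) or array 2 (0.34). The phosphatase gene PTP2 (0.45 ± 0.06) and the GTPase gene CDC42 (−0.56 ± 0.35) completed the called genes, and each lost its call without array 1 (0.47 and −0.60) or array 3 (0.46 and −0.37). HOG1 itself, named like PTP2 and CDC42 after its values were seen, had −0.13, 0.04 and −0.17 and was not called.

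Of 6 transcription factor genes of the osmotic response, SMP1 (1.08 ± 0.27, limma adjusted p = 0.000994) and MSN4 (0.69 ± 0.19, limma adjusted p = 0.00446) rose. HOT1, which drives GPD1 and STL1 under salt, stood at 0.12 ± 0.32. SKO1 (0.25 ± 0.15), MSN1 (0.27 ± 0.08) and MSN2 (−0.28 ± 0.31) were not called either.

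Ratios of the listed hyperosmotic targets were high. All 8 that were tested were called higher, against 26.0% of all genes tested, with a median log2 ratio of 1.66. The list was drawn up with results of these data known. It does not hold GPD1 or STL1, which are also raised by osmotic or salt stress and are grouped elsewhere here. STL1 had 0.28 and 0.33 on arrays 1 and 3. GRE1 and SIP18, hydrophilin genes, stood at 3.30 ± 0.19 and 2.97 ± 0.25, the small heat shock gene HSP12 at 2.64 ± 0.27 and the catalase gene CTT1 at 1.79 ± 0.06. GPD1, at 0.17 ± 0.11, was below the lowest of the 8, the sodium pump gene ENA1 at 0.54 ± 0.07. ENA1 lost its call without array 1 (0.56). Several of the 8 are also general stress genes. Among kinase genes, YPK1, whose product phosphorylates Gpd1, was called lower at −0.53 ± 0.15 (limma adjusted p = 0.0115) and lost the call without array 1 (−0.61) or array 3 (−0.47), while its paralogue YPK2 was called higher at 0.86 ± 0.17 (limma adjusted p = 0.0016).

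**Figure D4:**
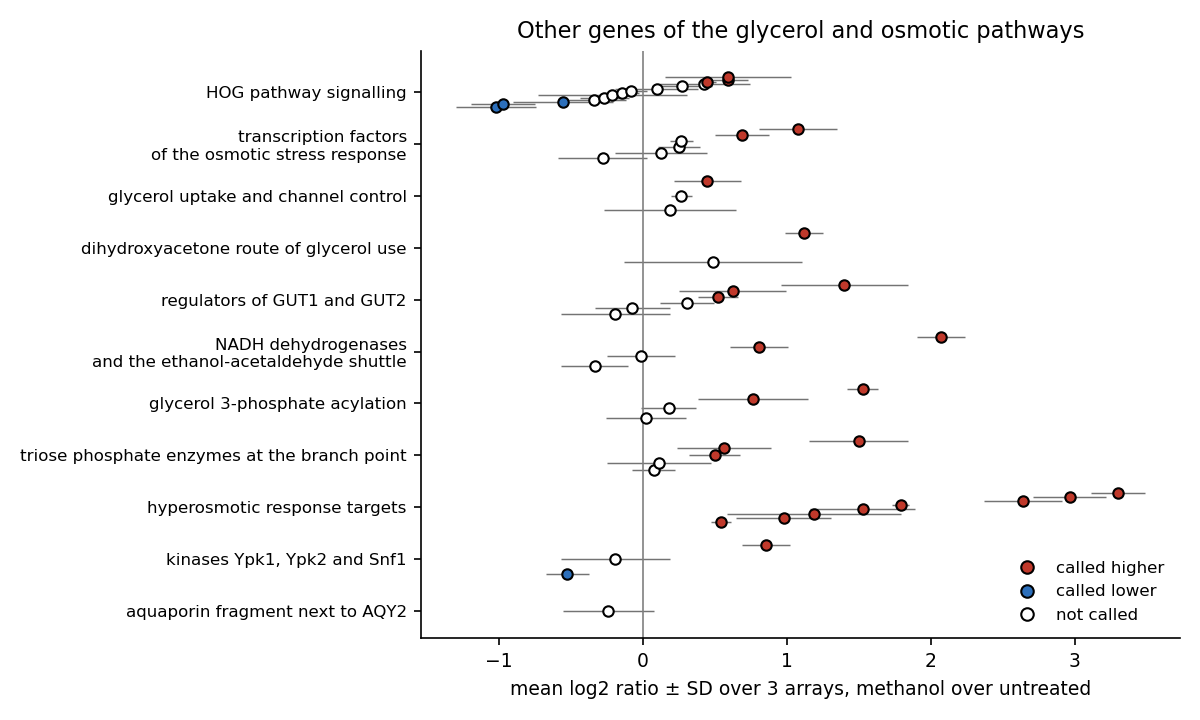
Mean log2 ratio ± SD over 3 arrays (horizontal axis) for each tested gene of the pathway lists (vertical axis), with red for called higher, blue for called lower and white for not called. The 8 hyperosmotic targets all lie to the right of 0.5, and the 14 HOG pathway genes lie between −1.02 and 0.59.

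By root mean square difference over the 3 arrays, the genes most like AQY1 among 4335 others were PHM7 (0.11), the hexose transporter gene HXT5 (0.12) and AQY3 (0.17). PHM7 had log2 ratios of 2.77, 3.29 and 2.78, and HXT5 had 2.69, 3.09 and 2.86. With 1 condition and 3 arrays this measure finds genes of similar size of ratio and says nothing more.

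Gene order in the R64 reference table gave the neighbours of each gene. Of 18 neighbouring places 12 held a tested gene, of which 3 were called higher and 2 lower, close to the 26.0% and 24.2% of all genes. AQY1 lies next to HPA2, an acetyltransferase gene that rose by 1.36 ± 0.14 (limma adjusted p = 0.000209), and to QCR2, which stood at 0.27 ± 0.16. AQY3 lies between the amino acid permease gene AGP3, with 1.23 and 1.63 on arrays 1 and 3, and DAK2. FPS1 and GUT1 each have a copy of the ribosomal protein gene pair RPL8B and RPL8A as a neighbour, at −0.76 ± 0.17 and −0.78 ± 0.14, both called lower, and these copies may share signal. These neighbours were named after their values were seen.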

How the data were processed

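Poly(A) RNA was measured on 3 two-colour arrays, each scanned at high and low laser power. The deposited values are log ratios, taken as log2, and the authors normalized the spots with flag 0 by LOWESS, per the labels' descriptions. Scanner, background correction and genome build are not given in the sources used here. Scan medians lay between −0.03 and 0.01, and scale and direction are not stated with the values. No intensities were used, so signal over background is unknown.

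Of 6912 spots, 5446 had 1 gene symbol, 0 several and 1466 none; all 5446 identifiers matched the R64 gene table. Scans were averaged per spot and spots per gene (identical copies once), and the median gene of each array was set to 0. Genes valued on 3 arrays were tested with limma 3.58.1 (R 4.3.3) against 0, with empirical Bayes moderation and Benjamini-Hochberg adjustment, and called at an adjusted p under 0.05. The fit was tested on simulated data with independent noise, no dye effect and a far smaller share of changed genes than was called here. That test therefore cannot speak to dye or array effects in these data. SDs are over n = 3 arrays, and their number limits the precision.

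Members and lists were chosen with earlier results of these data known. Named are all members, every measured gene of lists of up to 7 genes, the 4 called genes of largest absolute ratio in longer lists, and the 3 genes nearest to the member of largest ratio. Any other gene named, ENA1 and PNS1 among them, was chosen after its values were seen. Alternatives changed the scans, centring, missing values, array weights, moderation and replicates. No sequences were used.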

Additional observations from a re-analysis of the deposited data

How the results depend on the processing

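With low-power scans only, 1710 genes were tested and 431 were called higher and 485 lower. With spots valued in both scans 1595 were tested, with 446 higher and 502 lower. Under these 2 settings 0 members were called higher, because AQY1, AQY3 and GUT2 had no low-power values and GUT1 had them on 2 arrays only, so that none of these genes was tested, and 14 and 11 list genes were called higher. Members called lower numbered 2 without centring, 2 with centring on the mean gene and 2 with array weights, FPS1 being the addition. Leaving out each replicate gave 672 to 1218 genes higher and 575 to 1120 lower, 1 to 3 members lower, 2 to 5 list genes lower, and 1 to 58 genes whose scans differ. Across the alternatives that gave them a value, AQY1 ran from 2.79 to 2.99, AQY3 from 2.66 to 2.89, GUT1 from 1.59 to 1.93, GUT2 from 1.84 to 2.09 and GPP1 from −1.35 to −0.90, all still called. FPS1 ran from −0.53 to −0.30, GPD1 from 0.10 to 0.25, GPD2 from 0.12 to 0.37 and AQY2 from −0.61 to 0.14. Of 87 recomputed member ratios, 81 kept their side of the threshold and 6 gained a call, in AQY2, FPS1 and GPD2. List genes lost a call 19 times and gained it 10 times. The cause of these shifts was not tested. Promoter motif counts were not run, since no promoter sequences were used here, and GPP1 minus GPP2 had no value.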

Other observations

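In the gene order of the R64 reference table, 6 of the 9 measured genes lay within 21 protein-coding genes of a chromosome end. AQY1 and AQY3 each had 11 coding genes between them and the end, AQY2 had 14, GUT2 17, GUT1 19 and FPS1 21. The distance was set after these positions were seen. The share of all coding genes that lay as close was 12.0%. The 484 tested genes within that distance, which include these 6, had a median log2 ratio of 0.26. Of the 484, 39.9% were called higher and 18.0% lower, against 26.0% and 24.2% of all genes tested.

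PNS1, listed among the hyperosmotic targets, had values of 1.59 and 2.06 on arrays 1 and 3 only. In the fit that admitted genes with 2 arrays it stood at 1.83 (limma adjusted p = 0.0014).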
